A study of Mus musculus with 13 samples.

Results

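Chaperones and endoplasmic reticulum (ER) quality control factors are described here through 9 genes measured in CD45-positive cells sorted from subcutaneous mouse tumours. The members were chosen by name from a list of 3 cytosolic chaperones (Dnaja1, Bag1 and Cct5) and 6 ER factors (Sec61b, Erp44, Vcp, Ube2j1, Ufl1 and Creb3), and they are 9 of the 56923 gene IDs counted. All 9 passed the filter on low counts. The PSGL1_KO group held 6 libraries from tumours grown from EL4 cells, a mouse T-cell lymphoma line, with a knockout of PSGL1, a selectin ligand of leukocytes. The vector group held 7 libraries from tumours of EL4 cells carrying a vector. In both groups 500000 cells were injected under the skin of mice aged 6 to 8 weeks, and tumours were taken after about 20 days. The knockout was in the injected cells, and the labels do not say whether these were 1 clone, which mouse strain received them, or whether each replicate was its own mouse. P-values therefore measure the spread between these libraries, which may be technical. EL4 cells belong to the T lineage, which carries CD45, so the sort could hold tumour cells beside host leukocytes.

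Newly made proteins are folded in the cytosol by Hsp70 with its J-domain and nucleotide exchange partners and by the chaperonin TRiC, a barrel that folds actin and tubulin. Secreted and membrane proteins enter the ER through the Sec61 channel, are matured there by disulfide-handling enzymes, and are sent back to the cytosol for degradation when they fail to fold. Ubiquitin enzymes at the ER membrane mark such failures and the ATPase p97, encoded by Vcp, pulls them out. Secretory immune cells such as plasma cells are known for a large demand on these systems.

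Gene IDs took 3948005 to 5712566 counts per PSGL1_KO library and 3710817 to 5564911 per vector library, and the members had from 299 counts (Creb3) to 12683 counts (Cct5) per library. Gene names fit the counts only in parts of the genome. In the stretch of chromosome 4 from 3549041 to 59801589 (GRCm38), which holds 8 of the members, 54.1% of protein-coding IDs reached 20 counts per 1000000 gene counts (CPM), and on chromosome 15 from 9071260 to 38078854, which holds Cct5, 55.6% did. Elsewhere 17.0% of nuclear protein-coding IDs did, and the median of 78 ribosomal protein genes was 0.33 CPM. The knocked-out gene, Selplg, lies outside these stretches, with 3 to 63 counts in PSGL1_KO and 11 to 53 in vector libraries, and so cannot check the labels, nor can Ptprc, the gene of CD45. The file names begin their number with 3 in 2 libraries of each group and with 7 in 4 PSGL1_KO and 5 vector libraries; what this number stands for is not stated. In vector replicate 5 mitochondrial IDs took 34.5% of gene counts, against 10.0% to 17.8% in PSGL1_KO and 11.6% to 16.2% in the other vector libraries.

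Of the 6 ER factors 2 rose in PSGL1_KO tumours over all 13 libraries. None of the 3 cytosolic chaperones passed there, while Dnaja1 and Bag1 were higher in PSGL1_KO within the 4 libraries of file number 3. Creb3 was 1.57-fold and Erp44 1.47-fold higher, and in both 6 of 6 PSGL1_KO libraries lay above all vector libraries. Vcp, Sec61b and Ufl1 had positive log2 fold changes (log2FC, PSGL1_KO minus vector) of 0.37 to 0.45 and did not pass, and Ube2j1 had the single negative one. Over all 10422 IDs tested with edgeR's quasi-likelihood test, 9.02% were higher and 5.49% lower at an adjusted p below 0.05, and among 211 protein-coding IDs of the chromosome 4 stretch 23.7% were higher and 1.42% lower. The members' 2 of 9 therefore stands near the share of their own stretch. With scaling on name-checked nuclear genes 627 IDs (6.04%) were called higher and 1037 (9.99%) lower, in place of 940 and 572, and the median log2FC of all IDs became -0.18 in place of -0.01. Creb3 and Erp44 passed under that scaling too, with log2FC of 0.46 and 0.38 and adjusted p of 0.019 and 0.021. Differences in bulk RNA cannot tell fewer or more cells of a type apart from less or more RNA per cell.

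**Figure D1:**
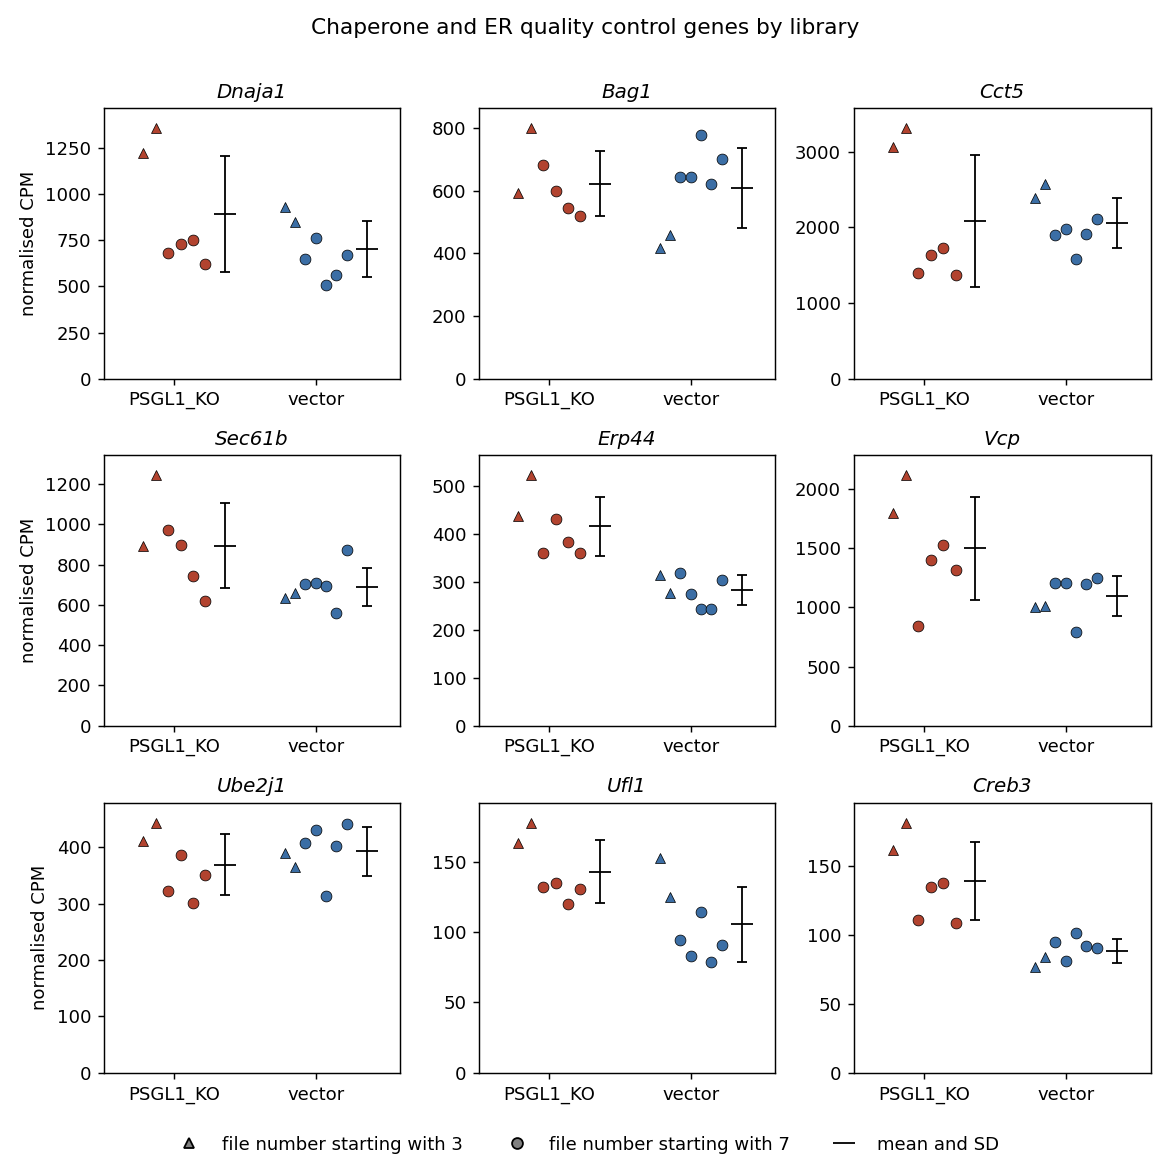
Normalised CPM (y axis, from 0) of the 9 genes in each library, PSGL1_KO left and vector right; triangles are libraries whose file number starts with 3, circles those starting with 7, and the bar is the mean with its SD (6 and 7 libraries). Creb3 and Erp44 do not overlap between the groups, and the triangles of Dnaja1, Cct5 and Ufl1 lie above the circles of the same group.

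Creb3 encodes a transcription factor anchored in the ER membrane, which is released by cleavage and moves to the nucleus. The gene (ENSMUSG00000028466.16) lies on chromosome 4 from 43562332 to 43567060. Its lowest, median and highest levels were 109, 136 and 182 CPM in PSGL1_KO libraries, against 76.5, 90.8 and 101 CPM in vector libraries. Every PSGL1_KO library was above every vector library, which was so in 4.14% of all IDs tested and in 12.8% of the protein-coding IDs of the chromosome 4 stretch, while 2.41% of all IDs had every PSGL1_KO library below. The mean was 139 ± 28.5 CPM in PSGL1_KO (SD, n = 6) and 88.6 ± 8.60 CPM in vector (SD, n = 7), and the fit gave 0.65 ± 0.14 (SE) on the log2 scale (edgeR, adjusted p = 0.0047). Exons of Creb3 overlap those of Tln1 and Gba2 on the opposite strand over 360 and 133 bases, or 15.2% and 5.61% of its exonic length. The sources used here do not give the strand setting, so reads of these genes may not be told apart. Tln1, which encodes talin, averaged 665 ± 322 CPM in PSGL1_KO and 665 ± 263 CPM in vector, and Gba2, a glucosylceramidase, 106 ± 8.15 and 110.0 ± 16.7 CPM, and neither passed.

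Erp44 encodes a thioredoxin-like protein of the early secretory pathway that holds back unassembled clients through their thiols. The gene (ENSMUSG00000028343.11) lies on chromosome 4 from 48193323 to 48279558, and no annotated exon of another gene overlaps its own. The lowest, median and highest levels were 359, 407 and 522 CPM in PSGL1_KO libraries, against 243, 277 and 317 CPM in vector libraries. The groups did not overlap. The mean was 416 ± 62.2 CPM in PSGL1_KO (SD, n = 6) and 282 ± 31.2 CPM in vector (SD, n = 7), and the fit gave 0.56 ± 0.13 (SE) on the log2 scale (adjusted p = 0.008). Leaving out any 1 of the 13 libraries kept both genes past the threshold, with adjusted p from 0.0034 to 0.014 for Creb3 and from 0.007 to 0.025 for Erp44.

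The sequences just upstream of the start sites are shown for the pair that passed and for the 2 members that carry a core of the unfolded protein response element, TGACGTG, in this window. They are the 250 bases before the first start site listed by RefSeq on GRCm38.p6, which can differ from the GENCODE start, written 5′ to 3′ along the gene, and capitals mark matches to TGACGTG, the CCAAT box CCAAT, the heat shock element cores GAANNTTC and TTCNNGAA, the cyclic AMP response element TGACGTCA or the full ER stress response element, on either strand, with N left in lower case.
Creb3 (chr4:43562408-43562657, strand +): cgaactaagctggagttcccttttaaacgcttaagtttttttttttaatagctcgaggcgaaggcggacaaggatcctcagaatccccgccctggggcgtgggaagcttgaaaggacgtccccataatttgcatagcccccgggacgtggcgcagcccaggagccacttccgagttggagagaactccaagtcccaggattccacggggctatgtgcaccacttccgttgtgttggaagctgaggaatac
Erp44 (chr4:48279636-48279885, strand -): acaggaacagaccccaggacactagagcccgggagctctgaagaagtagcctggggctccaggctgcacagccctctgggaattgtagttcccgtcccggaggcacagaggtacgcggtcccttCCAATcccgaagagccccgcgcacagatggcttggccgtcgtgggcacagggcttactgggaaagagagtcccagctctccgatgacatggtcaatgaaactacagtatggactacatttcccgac
Vcp (chr4:43000508-43000757, strand -): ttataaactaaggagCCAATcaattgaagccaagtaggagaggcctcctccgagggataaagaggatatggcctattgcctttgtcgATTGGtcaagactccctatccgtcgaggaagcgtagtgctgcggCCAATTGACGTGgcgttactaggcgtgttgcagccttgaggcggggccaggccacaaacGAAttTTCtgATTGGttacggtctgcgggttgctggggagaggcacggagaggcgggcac
Ube2j1 (chr4:33031130-33031379, strand +): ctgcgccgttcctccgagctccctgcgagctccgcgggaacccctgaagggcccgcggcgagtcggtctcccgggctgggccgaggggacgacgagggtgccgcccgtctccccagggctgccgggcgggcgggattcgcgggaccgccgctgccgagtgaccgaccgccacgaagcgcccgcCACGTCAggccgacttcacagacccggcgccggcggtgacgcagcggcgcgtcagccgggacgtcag
The Creb3 window held none of the 6 motifs and the Erp44 window only CCAAT, which 33.8% of 32817 RefSeq windows of this length held. The Creb3 window lies wholly inside the gene as GENCODE draws it, from 43562332, so bases upstream of that start were not searched. In the Vcp window TGACGTG spans positions -114 to -108 before the start site and directly follows a CCAAT box at -119 to -115. In the Ube2j1 window its reverse complement CACGTCA spans -67 to -61. TGACGTG was in 1.65% of all windows, the full ER stress response element in 0.113% and in no member's window, and TGACGTCA in 1.55% and in no member's window. GAANNTTC and TTCNNGAA were in 6.69% and 7.16% of all windows, and windows of Dnaja1 and Vcp held GAANNTTC and those of Cct5 and Ufl1 TTCNNGAA. A match is a string of letters and not a binding site.

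Vcp and Ube2j1, which act in the same disposal route, did not pass. Vcp (ENSMUSG00000028452.8, chromosome 4 from 42979963 to 43000507) had a lowest, median and highest level of 839, 1464 and 2112 CPM in PSGL1_KO libraries, against 794, 1192 and 1251 CPM in vector libraries. In 5 of 6 PSGL1_KO libraries Vcp was above every vector library, and the low one was PSGL1_KO replicate 3, with the highest mitochondrial share of its group (17.8%), whose part in the value was not tested. The fit gave 0.45 ± 0.19 (SE, adjusted p = 0.12), and without PSGL1_KO replicate 3 it was 0.59 with adjusted p = 0.028. Exons of Vcp share 352 bases (7.26% of its exonic length) with 1700022I11Rik on the opposite strand, whose reads may likewise not be told apart from those of Vcp. That gene averaged 393 ± 141 CPM in PSGL1_KO and 276 ± 56.5 CPM in vector, a log2FC of 0.51 (adjusted p = 0.15), and 5 of 6 PSGL1_KO values exceeded all vector values, as for Vcp. Ube2j1, the ubiquitin-conjugating enzyme anchored in the ER membrane (ENSMUSG00000028277.14, chromosome 4 from 33031416 to 33052363), had 300.4, 368 and 444 CPM in PSGL1_KO and 314, 401 and 441 CPM in vector libraries as lowest, median and highest values. The groups overlapped over nearly their whole range, with a log2FC of -0.089 and a 95% interval from -0.37 to 0.19 (adjusted p = 0.72).

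Sec61b and Ufl1 were higher on average in PSGL1_KO without passing. Sec61b, the beta subunit of the protein-conducting channel (ENSMUSG00000053317.12, chromosome 4 from 47474658 to 47483242), had lowest, median and highest levels of 618, 894 and 1242 CPM in PSGL1_KO libraries, against 561, 695 and 871 CPM in vector libraries. The 4 highest PSGL1_KO libraries exceeded all vector libraries, and the log2FC was 0.37 ± 0.16 (SE, adjusted p = 0.14). Ufl1, the ligase that attaches the ubiquitin-like protein UFM1 at the ER (ENSMUSG00000040359.15, chromosome 4 from 25248600 to 25281821), had 120.3, 133 and 178 CPM in PSGL1_KO and 78.7, 94.7 and 152 CPM in vector libraries. Vector replicates 1 and 2 were the highest of their group, at 152 and 125 CPM, and both have a file number starting with 3. The log2FC of Ufl1 was 0.44 ± 0.17 (SE, adjusted p = 0.088), and it passed without vector replicate 1 (0.55, adjusted p = 0.021) and with the file number as a covariate (0.43, adjusted p = 0.0049). Ufl1 exons share 96 bases (1.68%) with the noncoding Gm11906 on the opposite strand, which had 28.5 ± 5.53 CPM in PSGL1_KO and 21.6 ± 4.66 CPM in vector (log2FC 0.40, adjusted p = 0.16). The covariate fit called 13.8% of IDs higher and 12% lower. It did not call Sec61b (adjusted p = 0.065). A fit with the replicate number as a block, which leaves out vector replicate 7, called Sec61b and Ufl1 higher, with 11.2% of IDs higher and 9.16% lower. Vector replicate 7 had the highest Sec61b level of its group, 871 CPM. Without that library and without the block, Sec61b had a log2FC of 0.44 (edgeR, adjusted p = 0.098). The labels do not say that equal numbers are pairs, so this block has no stated basis.

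For each of the 3 cytosolic chaperones the log2FC between file numbers was larger in size than that between the groups. The same held for the ER factors Ufl1 (0.50 against 0.44) and Ube2j1 (0.12 against -0.089). Dnaja1, a J-domain partner of Hsp70 (ENSMUSG00000028410.14, chromosome 4 from 40722150 to 40737149), had lowest, median and highest levels of 621, 741 and 1358 CPM in PSGL1_KO libraries, against 507, 669 and 929 CPM in vector libraries, a log2FC of 0.35 with a 95% interval from -0.08 to 0.77 (adjusted p = 0.29). Exons of Dnaja1 share 608 bases (7.05%) with Smu1, a splicing factor gene on the opposite strand, which had 512 ± 188 CPM in PSGL1_KO and 425 ± 86.6 CPM in vector (log2FC 0.27, adjusted p = 0.43). They also overlap the noncoding Gm6297, not analysed here, and Mir207, listed at 0 counts. Cct5, the epsilon subunit of TRiC (ENSMUSG00000022234.16, chromosome 15 from 31590800 to 31601804), had 1369, 1680 and 3306 CPM in PSGL1_KO and 1581, 1981 and 2565 CPM in vector libraries. Its log2FC was 0.015 with an interval from -0.44 to 0.47 (adjusted p = 0.98). Bag1, a nucleotide exchange factor of Hsp70 that also binds Bcl-2 (ENSMUSG00000028416.14, chromosome 4 from 40936398 to 40948294), had 519.7, 597 and 799.6 CPM in PSGL1_KO and 419, 643 and 778 CPM in vector libraries, a log2FC of 0.033 with an interval from -0.31 to 0.37 (adjusted p = 0.93). In all 3 genes the groups overlapped. The signs of Bag1 and Cct5 turned with the scaling, to -0.15 and -0.20 with factors from name-checked nuclear genes.

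With the group in the model, 3 members were higher in libraries of file number 3 than in those of 7. Cct5 was 1.65-fold higher (log2FC 0.72 ± 0.14 SE, adjusted p = 0.00031), Dnaja1 1.62-fold (0.69 ± 0.12, adjusted p = 0.00018) and Ufl1 1.41-fold (0.50 ± 0.11, adjusted p = 0.0015). Dnaja1 had 1227 and 1358 CPM in the 2 PSGL1_KO libraries of file number 3 and 621 to 752 CPM in the 4 of file number 7. In vector libraries it had 929 and 849 CPM in file number 3 and 507 to 763 CPM in file number 7. The 2 file numbers did not overlap within either group for Dnaja1. Over all IDs 18.9% were higher and 20.9% lower in file number 3, so such a difference was common. Bag1, with a log2FC of -0.18 between file numbers, did not pass.

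The members that passed within each file number were not the same set, as the plot of fold changes shows, and of the differences between file numbers only that of Bag1 passed its own test. Within file number 7, Creb3 (0.41, adjusted p = 0.02), Erp44 (0.46, adjusted p = 0.0086) and Ufl1 (0.48, adjusted p = 0.0098) were higher, where 11.2% of all IDs were higher and 9.63% lower. Within file number 3, on 2 libraries per group, 6 members were higher, where 12.5% of all IDs were higher and 10.8% lower. They were the ER factors Creb3 (1.13, adjusted p = 4.6e-07), Vcp (0.98, adjusted p = 5.8e-06), Sec61b (0.75, adjusted p = 0.00077) and Erp44 (0.73, adjusted p = 0.0012) and the cytosolic chaperones Bag1 (0.70, adjusted p = 0.002) and Dnaja1 (0.57, adjusted p = 0.014). The SEs of the members in that fit were nearly equal, from 0.186 to 0.198. With 2 libraries per group it used a spread shared over IDs, so these p-values do not measure each gene's own spread. Within file number 3 Vcp had 1794 and 2112 CPM in PSGL1_KO and 1003 and 1015 CPM in vector libraries. Within file number 7 Vcp had 839 to 1529 CPM in PSGL1_KO and 794 to 1251 CPM in vector libraries, with a log2FC of 0.16 (adjusted p = 0.55). The scaling mattered most within file number 3, where factors from name-checked nuclear genes, an alternative chosen after seeing the data, gave 3 higher members, Creb3 (0.76), Vcp (0.62) and Sec61b (0.38). Erp44 (0.36, adjusted p = 0.057), Bag1 (0.32, adjusted p = 0.09) and Dnaja1 (0.21, adjusted p = 0.25) no longer passed there. Within file number 7 these factors gave Erp44 (0.37) and Ufl1 (0.39) higher and Cct5 (-0.41, adjusted p = 0.013) and Bag1 (-0.31, adjusted p = 0.04) lower, while Creb3 (0.31, adjusted p = 0.059) no longer passed. The shares of all IDs called within each file number under these factors are not given here. Over all 13 libraries the same factors moved the median log2FC of all IDs from -0.01 to -0.18.

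**Figure D2:**
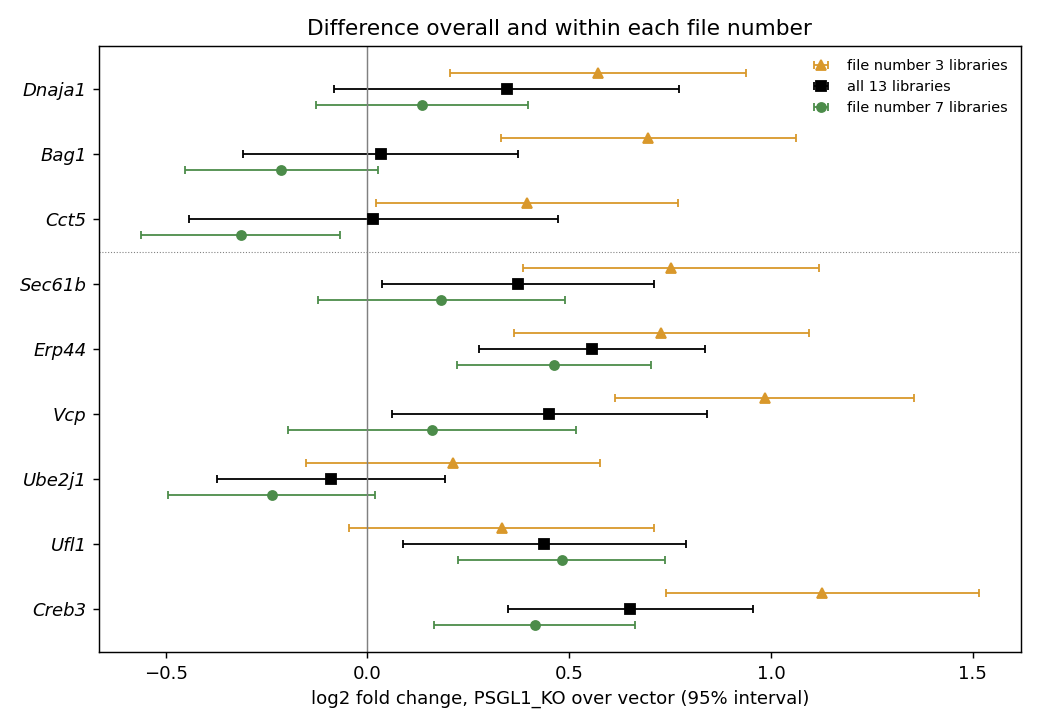
Log2 fold change of PSGL1_KO over vector (x axis) with its 95% interval for the 9 genes, in all 13 libraries (squares), within file number 3 (triangles, 2 and 2 libraries) and within file number 7 (circles, 4 and 5 libraries); the dotted line parts the cytosolic chaperones above from the ER factors below. The triangle lies to the right of the circle in every gene except Ufl1. Intervals within file number 3 rest on a spread shared over IDs and not on each gene's own libraries.

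Bag1 was the member whose difference itself differed between the file numbers. It had 594 and 799.6 CPM in PSGL1_KO and 419 and 460 CPM in vector libraries of file number 3. In file number 7 it had 519.7 to 681 CPM in PSGL1_KO and 620.3 to 778 CPM in vector libraries. The log2FC was 0.70 within file number 3 and -0.21 within file number 7, and the test of the difference gave -0.87 ± 0.21 (SE) with adjusted p = 0.039, against 2.11% of IDs passing that test. It did not pass with factors from name-checked nuclear genes (adjusted p = 0.069), nor when PSGL1_KO replicate 2, 5 or 6, or vector replicate 1, 2, 3, 4 or 7, was left out (adjusted p from 0.052 to 0.28). Without vector replicate 5, the library with the high mitochondrial share, Bag1, Cct5, Vcp and Creb3 passed, with adjusted p from 0.014 to 0.038. The share of all IDs passing in that fit is not given here, so these calls cannot be set against it.

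Ratios within a library need no scaling between libraries, and the ratio of ER factors to cytosolic chaperones was higher in each PSGL1_KO library than in every vector library of the same file number. The summed counts of the 6 ER factors divided by those of the 3 cytosolic chaperones were 0.791 and 0.856 in the PSGL1_KO libraries of file number 3, against 0.689 and 0.652 in vector libraries. In file number 7 they were 0.992 to 1.15 in the 4 PSGL1_KO libraries, against 0.789 to 0.885 in the 5 vector libraries. The groups did not overlap within either file number, and they overlapped over all 13 libraries. This ratio was chosen after the values had been seen and has no test. All 6 ER factors, Dnaja1 and Bag1 lie in the chromosome 4 stretch, and Cct5, with the most counts of the cytosolic sum, on chromosome 15. The median log2FC of protein-coding IDs was 0.26 in the chromosome 4 stretch and 0.03 in that of chromosome 15, and the part of this in the ratio was not tested. Vcp and Cct5 held the most counts of their sets, and in their ratio PSGL1_KO replicate 3 of file number 7, at 0.601, lay within the vector range of 0.502 to 0.636 there. Dnaja1 over Bag1 separated the file numbers more than the groups, at 1.70 to 2.07 in PSGL1_KO and 1.85 to 2.22 in vector libraries of file number 3, and at 1.00 to 1.38 in PSGL1_KO and 0.651 to 1.19 in vector libraries of file number 7.

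**Figure D3:**
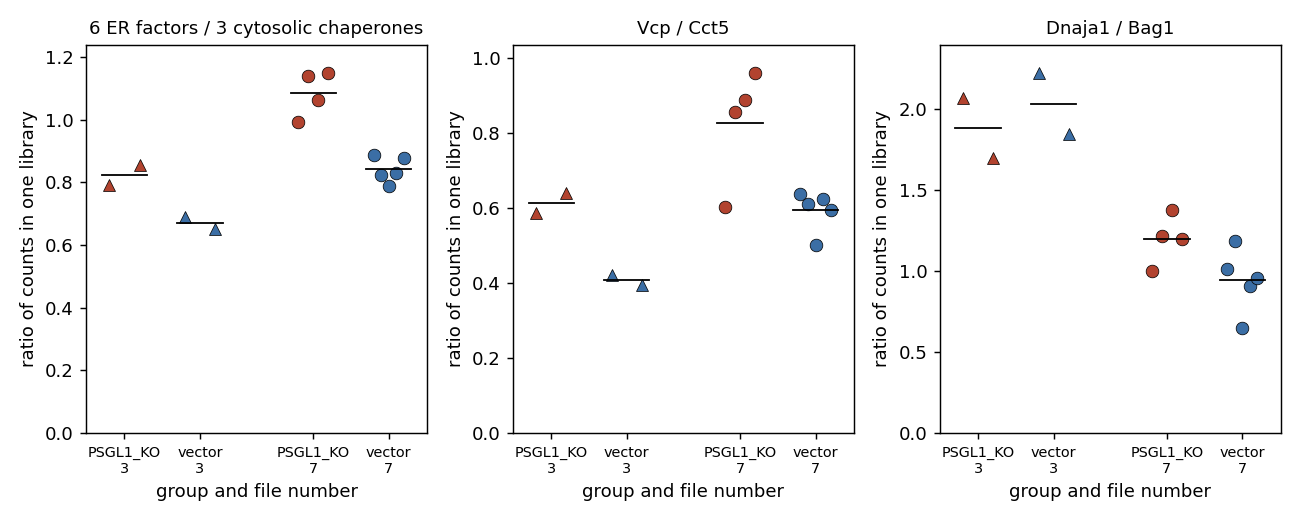
Ratio of counts within each library (y axis, from 0) for the 6 ER factors over the 3 cytosolic chaperones, for Vcp over Cct5 and for Dnaja1 over Bag1, by group and first digit of the file number; bars are means. In the first ratio PSGL1_KO libraries lie above vector libraries within each file number, from 0.791 to 0.856 against 0.652 to 0.689 and from 0.992 to 1.15 against 0.789 to 0.885.

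Per kilobase of exon the members spanned a wide range of levels. Cct5 had the most, 753 ± 314 CPM per kilobase in PSGL1_KO (SD, n = 6) and 745 ± 119 in vector (SD, n = 7), followed by Sec61b with 704 ± 167 and 543 ± 74.6 and by Bag1 with 462 ± 76.1 and 452 ± 94.7. Cct5 and Sec61b did not differ beyond their spread in PSGL1_KO. Before division by length, Cct5 there averaged 3185 CPM in file number 3 and 1531 CPM in file number 7, and Sec61b 1068 and 807 CPM. Their exonic lengths are 2.766 and 1.271 kilobases. Per kilobase, the PSGL1_KO mean of Cct5 was therefore above that of Sec61b in file number 3 and below it in file number 7. Vcp had 309 ± 89.6 in PSGL1_KO and 226 ± 34.2 in vector. Erp44 (122 ± 18.2 and 82.6 ± 9.13), Ube2j1 (105 ± 15.4 and 111 ± 12.2) and Dnaja1 (104 ± 36.4 and 81.6 ± 17.6) had overlapping ranges of mean ± SD in PSGL1_KO. These spreads are between libraries, and levels per kilobase were not compared within a library. Creb3 (58.7 ± 12.01 and 37.4 ± 3.63) and Ufl1 (25.1 ± 3.92 and 18.5 ± 4.63) were the lowest. Exon lengths are those of GENCODE M21, whose version of each member's ID is 1 or 2 below that in the files, so the lengths may differ from those counted. Each length joins all annotated exons of a gene and can exceed that of the RNA present, which lowers the level per kilobase. Dnaja1, Sec61b and Vcp have 4, 3 and 1 annotated near copies (90% identity over 100 bases or more), and reads shared with them may be lost from their counts. All of these copies lie outside the name-checked stretches, so their counts are not read here.

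Of the other listed genes 1 passed in the edgeR fit of group only. It was Asns, a biosynthetic enzyme listed with the ER stress factors and not itself a chaperone or quality control factor. Of the lists of cytosolic chaperones, ER translocation, ER folding, ER-associated degradation, UFMylation and ER stress factors, 8 genes reported here beside the members had a checked name and were tested. The edgeR fit of group only called 0 higher and 1 lower, against 9.02% and 5.49% of all IDs tested, and their median log2FC was 0.15. Asns, asparagine synthetase, a target of the stress factor ATF4, was 509 ± 117 CPM in PSGL1_KO (SD, n = 6) and 1077 ± 162 CPM in vector (SD, n = 7), a log2FC of -1.08 with adjusted p = 0.0002. March6, a ubiquitin ligase of the ER membrane, had 521 ± 108 CPM in PSGL1_KO and 382 ± 52.0 CPM in vector, a log2FC of 0.45 with adjusted p = 0.053. Dnajc25, a membrane J-domain protein, had 75.2 ± 6.44 CPM in PSGL1_KO and 57.0 ± 8.33 CPM in vector, without overlap of the groups and with adjusted p = 0.057. Both passed with DESeq2 (adjusted p = 0.029 and 0.028), which called 10.5% of IDs higher and 7.7% lower. Leaving out 1 library at a time gave March6 adjusted p from 0.03 to 0.13 and Dnajc25 from 0.052 to 0.12. Retreg1, an ER-phagy receptor, had a log2FC of 0.38 (adjusted p = 0.13). Dnajc21, Dnajb5, Ubxn2b and Rad23b, a proteasome shuttle, lay between -0.045 and 0.20 on the log2 scale, none passing (lowest adjusted p = 0.44). With the file number as a covariate, March6, Dnajc25 and Retreg1 were higher (edgeR, adjusted p = 0.005, 0.016 and 0.034), where 13.8% of IDs were higher. With the replicate number as a block they were also higher (0.026, 0.034 and 0.021), where 11.2% of IDs were higher. With factors from name-checked nuclear genes none of them passed (0.13, 0.22 and 0.30).

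**Figure D4:**
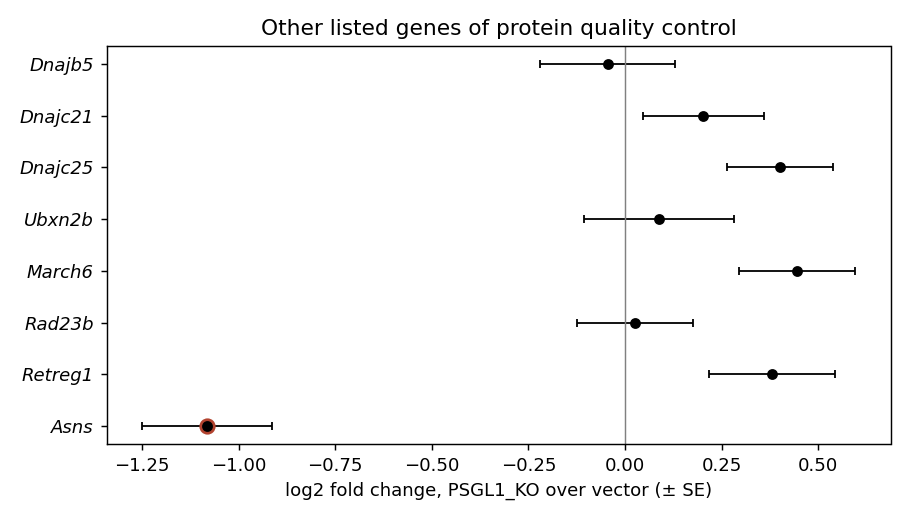
Log2 fold change of PSGL1_KO over vector with its SE (x axis) for the 8 other listed genes with a checked name, ordered by list. Asns (red) passed at an adjusted p of 0.0002, and the other 7 lie between -0.045 and 0.45.

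The genes whose levels ran closest to a member over the 13 libraries were sought among name-checked protein-coding genes, by the mean absolute difference of centred log2 CPM. Erp44 was closest to B4galt1 (0.096) and Rab2a (0.097), where its own mean deviation was 0.27. Creb3 was closest to Pop1 (0.12) and Tmem64 (0.13), Sec61b to Chchd7 (0.089) and Ccdc107 (0.14), and Ufl1 to Tmem68 (0.11) and Wwp1 (0.12). Vcp was closest to Laptm4b (0.14) and Virma (0.18), and Ube2j1 to Rad23b (0.076) and Ankrd46 (0.084). Dnaja1 and Cct5 shared Ncbp1 as the closest gene (0.11 and 0.089), with Stk3 (0.12) and Zfp622 (0.10) next, and Bag1 was closest to Fam173b (0.089) and Smim27 (0.10). These are descriptions over libraries that share group, file number and depth.

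Some markers of cell types also differed between the groups. Over all IDs tested 9.02% were higher and 5.49% lower, and among protein-coding IDs of the chromosome 4 stretch 23.7% and 1.42%. All 3 genes tested of the myeloid list (Lyn, Tfec and Atp6v0d2) were higher in PSGL1_KO. Their summed level was 290.3 to 515 CPM in PSGL1_KO and 68.0 to 156 CPM in vector libraries. Lyn had the highest mean of the 3, 245 CPM in PSGL1_KO and 58.2 CPM in vector, and is also found in B cells. Of 2 B-cell markers Cd72 was higher, with sums of 152 to 319 and 29.7 to 77.0 CPM. Of 10 stromal markers tested 3 were higher (Reck, Svep1 and Sdc2) and 0 lower. The sums over all 10 were 996 to 4540 CPM in PSGL1_KO and 919 to 2468 CPM in vector. Most of them came from Col1a2, with means of 2598 and 1418 CPM, which did not pass (edgeR, adjusted p = 0.083). Of 4 T-cell markers Bach2 was higher and Sit1 lower, with sums of 360.0 to 553 and 430.5 to 602 CPM. Bach2 was at a low level, with means of 4.09 CPM in PSGL1_KO and 1.81 CPM in vector libraries. No marker with a checked name was at 0 in all libraries, and the part of these cells in the members' differences was not tested.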

How the data were processed

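RNA of sorted CD45-positive cells was sequenced in 13 libraries. The authors deposited raw read counts per gene ID; the submitters' processing notes list mm10 with HISAT2, SAMtools and HTSeq. Tool versions, annotation release and strand setting: not given in the sources used here. HTSeq's summary entries were left out of library sizes; reads over no feature were 67.3% to 75.4% and multiply aligned reads 7.71% to 13.6% of all reads. Symbols matched 52073 of 56923 IDs; coordinates are GENCODE M21 on GRCm38. Names were read only in stretches of chromosomes 4, 6 and 15 whose protein-coding counts fit them. Members, lists, motifs and stretches were chosen with earlier results of these data known.

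The groups came from the sample titles. The test was edgeR 4.0.16 (R 4.3.3), quasi-likelihood with robust dispersion, TMM factors, filterByExpr, group only, two-sided, Benjamini-Hochberg over 10422 IDs, threshold 0.05. Levels are TMM-normalised CPM (per 1000000 counts); log2 CPM used a prior count of 2. Alternatives were DESeq2 1.42.0, other factors, no filter, the file number as covariate or subset, a replicate block and each library left out. Named were all members, listed genes with a checked name (1 is not reported here), genes overlapping a member, the 2 closest genes to each member, and markers; naming every marker that passed goes beyond the rule. No 2 libraries agreed within sampling noise (lowest mean chi-square per ID 2.99).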

Additional observations from a re-analysis of the deposited data

Results flagged for a closer look

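Bag1 stood out because its difference between PSGL1_KO and vector differed between the file numbers, with a log2FC within file number 7 minus that within file number 3 of -0.87 and adjusted p = 0.039 in edgeR. The lowest and highest library of each group were examined for each member in 18 sets of values by Dixon's criterion, which chance alone meets in about 1 of 20 sets, and none of the 18 met it.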

How the results depend on the processing

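Over all 13 libraries Creb3 and Erp44 passed under every alternative run for scaling, filter, covariate and tool. They also passed without any 1 library and with the replicate block, which leaves out vector replicate 7. Leaving out 1 library gave 2 to 3 members higher and 0 lower, and 753 to 1034 IDs higher and 425 to 607 lower. It gave 0 to 4 members whose difference differed between file numbers, for which the share of all IDs is not given here. Over all 13 libraries the count of such members was 0 with factors from name-checked nuclear genes. Members called higher were 6 within file number 3, and 3 there with name-checked factors. With these factors 2 were lower within file number 7. Both uses of these factors were chosen after seeing the data, and the shares of all IDs called in them are not given here. Over all IDs the covariate gave 1435 higher and 1254 lower, file number 7 1038 lower, file number 3 1135 lower and name-checked factors 1037 lower. Signs turned for Bag1 (-0.15 with name-checked factors, -0.21 within file number 7, -0.046 to 0.10 without 1 library), Cct5 (-0.20 with name-checked factors, -0.10 with the covariate, -0.31 within file number 7, -0.060 with the replicate block, -0.15 to 0.14 without 1 library) and Ube2j1 (0.21 within file number 3); the cause was not tested.

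With the replicate number as a block (replicate block, 6 pairs) 4 members were higher (11.2% of IDs), adding Sec61b (adjusted p = 0.048) and Ufl1 (0.029), and 953 IDs (9.16%) were lower. The labels do not say that equal numbers are pairs. Same-numbered deviations correlated at -0.05 to 0.60, over 0.1 in 4 of 6 pairs. Same-numbered libraries also share the file number, and within file numbers the correlations were -0.17 to 0.30. Of 6 PSGL1_KO libraries 2 were closest to the vector library of their number. File number 3 holds 2 libraries per group.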
